A study of Mus musculus with 2 samples.

Results

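The genes described here are Pigq and 9 other genes of glycosylphosphatidylinositol (GPI) anchor synthesis: Piga, Pigc, Pigh, Pigp, Dpm2, Pigl, Pigf, Pigo and Pigk. They were found by gene name among the non-control probes of the array. They make up 10 of the 16581 genes measured and 13 of the 41174 probes. Pigq was chosen because its ratio between the samples was among the largest rises on these arrays, and the other members were added as genes of its pathway. The members' ratios are therefore given as a description, without p-values.

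RNA from G1E-ER-GATA-1 cells treated with ETO2 siRNA was hybridised together with RNA from the same line treated with control siRNA. There were 2 such arrays, numbered as replicates in the labels. G1E is a GATA-1-null mouse erythroid line, and GATA-1 is the transcription factor that drives red cell maturation. G1E-ER-GATA-1 has this factor back in a form joined to part of the oestrogen receptor, and cells of both groups were kept in β-estradiol, which switches that protein on, for 24 h. ETO2, encoded by Cbfa2t3, is a corepressor that works with GATA-1 and TAL1. The labels do not say that the arrays came from separate cultures, and the line is the only one used, so the spread between arrays may be technical. On both arrays the ETO2 siRNA RNA carried Cy3 and the control siRNA RNA carried Cy5, so a dye effect of a single probe cannot be told apart from the treatment. Every log2 ratio is ETO2 siRNA over control siRNA.

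A GPI anchor is a glycolipid that holds certain proteins on the outer face of the cell. It is built on phosphatidylinositol in the endoplasmic reticulum by adding glucosamine, mannoses and ethanolamine phosphates, and is then joined to the protein. The opening reaction, transfer of N-acetylglucosamine, is carried out by an enzyme of several subunits: Piga is catalytic, and Pigc, Pigh, Pigp, Pigq, Pigy and Dpm2 are its partners. Pigl removes the acetyl group in the next step. Pigo and its partner Pigf add ethanolamine phosphate to a mannose, and Pigk is the catalytic subunit of the transamidase that joins anchor and protein. In humans, blood cells that lose PIGA lack the complement inhibitors CD55 and CD59, and the red cells are lysed in paroxysmal nocturnal haemoglobinuria.

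The probes are shown because they set how far the values can be checked within an array. Pigq, identified in the array file by the RefSeq transcript NM_011822 (chromosome 17), had 2 probes of 60 bases. Capitals mark the 20 bases that both contain.
Pigq probe A_51_P232107: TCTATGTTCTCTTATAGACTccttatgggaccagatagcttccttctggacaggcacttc
Pigq probe A_52_P487483: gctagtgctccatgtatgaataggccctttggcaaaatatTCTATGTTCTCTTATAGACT
The shared bases end the second probe and open the first, so both read adjoining parts of 1 transcript and are not independent measurements. Piga (NM_011081, chromosome X) also had 2 probes, which share no such overlap and, as given below, differed in direction.
Piga probe A_51_P458839: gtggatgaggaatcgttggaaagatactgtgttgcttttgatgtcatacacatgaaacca
Piga probe A_52_P405465: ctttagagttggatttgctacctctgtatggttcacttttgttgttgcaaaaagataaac
Pigp (NM_019543, chromosome 16), the member with the lowest ratio, was read by a single probe.
Pigp probe A_51_P182144: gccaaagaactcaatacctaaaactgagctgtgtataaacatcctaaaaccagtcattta
Pigh had 2 probes and each other member had 1. All 13 probes were well above background in all 4 channels, and none was saturated. An older name of Pigq in the RefSeq table is Gpi1, but the Gpi1 probes of this array are described in the file as glucose phosphate isomerase and were not counted.

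The samples were checked first on the targeted gene. Cbfa2t3 had log2 ratios of -0.39 and -0.46 on the 2 arrays, and its level was 74.6% of that in control siRNA cells (limma, adjusted p = 9.2e-05). Over all genes, 3050 were higher and 3694 lower in ETO2 siRNA cells (limma, Benjamini-Hochberg adjusted p under 0.05), which is 18.4% and 22.3% of those tested and 40.7% together. Higher genes made up 45.2% of these calls after loess normalization but 4.12% after plain median centring, where the median ratio of all genes was -0.31. The median signal of all non-control spots was 82.8 and 77.5 in the ETO2 siRNA channel and 105 and 105 in the control siRNA channel, over local backgrounds of 44 to 47. All 9 erythroid markers measured were higher in ETO2 siRNA cells. Of these, 3 were saturated in at least 1 channel on both arrays. The summed normalized signal of the other 6 was 140730 and 149310, against 71713 and 74988 in control siRNA cells. Much of that rise came from Slc4a1, at a mean log2 signal of 15.87 against 12.99 in control siRNA cells, a log2 ratio of 2.88. The rest of the 6 had mean log2 ratios from 0.25 for Klf1 to 1.04 for Alas2. With the saturated probes, whose levels the scanner caps, the sums were 393340 and 417620, against 209370 and 207640. The summed signal of 4 embryonic stem cell markers was 620 and 642, against 653 and 705 in control siRNA cells, while Pou5f1, Nanog, Sox2, Zfp42 and Dppa3 were not well above background, although the labels give embryonic stem cells as the cell type. Of 7 mast cell and myeloid markers, Hdc passed as lower and 6 did not pass. Their sums were 830 and 876, against 1134 and 1145 in control siRNA cells, and without Hdc 664 and 700, against 676 and 712. Sums of lymphocyte markers (5 genes) were 726 and 724, against 801 and 847 in control siRNA cells. Megakaryocyte markers (4 genes) summed to 12363 and 14984, against 8203 and 10113 in control siRNA cells. A change in the mix of cells and a change in RNA per cell cannot be told apart in such bulk RNA, and the part of these marker shifts in the ratios below was not tested.

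Pigq read 16998 and 17290 scanner units with ETO2 siRNA (Cy3) and 13924 and 12626 with control siRNA (Cy5), with local backgrounds of 47.5 to 51.5. After normalization, which corrects for the dimmer Cy3 channel, its log2 signal was 14.46 and 14.64 in ETO2 siRNA cells, against 13.30 and 13.12 in control siRNA cells. Pigq was thus higher with ETO2 siRNA on both arrays. The log2 ratios were 1.16 and 1.51, a mean of 1.34 ± 0.25 (SD, n = 2 arrays), or 2.52-fold. The overlapping second probe, at 10626 and 11733 scanner units in ETO2 siRNA cells against 8629 and 8867 in control siRNA cells, gave ratios of 1.15 and 1.44 and a mean of 1.29 ± 0.20 (SD, n = 2 arrays), or 2.45-fold. Pigq ranked 7 of 16581 genes by its ratio.

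The size of the Pigq ratio was less closely repeated between arrays than that of most genes: 97.9% of genes had a smaller SD. Array 2 gave the larger value for Pigq, as it did for 34 of the 49 genes that were at least 2-fold higher by their mean. Before any normalization, the background-subtracted ratio of the Pigq probes was 0.29 to 0.46 on the log2 scale. The same unnormalized ratio was -0.47 to -1.58 for the 11 probes of the other members, and its median over non-control spots well above background in both channels was -0.73 on array 1 and -0.90 on array 2. Pigq was therefore the only member whose ETO2 siRNA channel was the brighter before the dye correction.

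**Figure D1:**
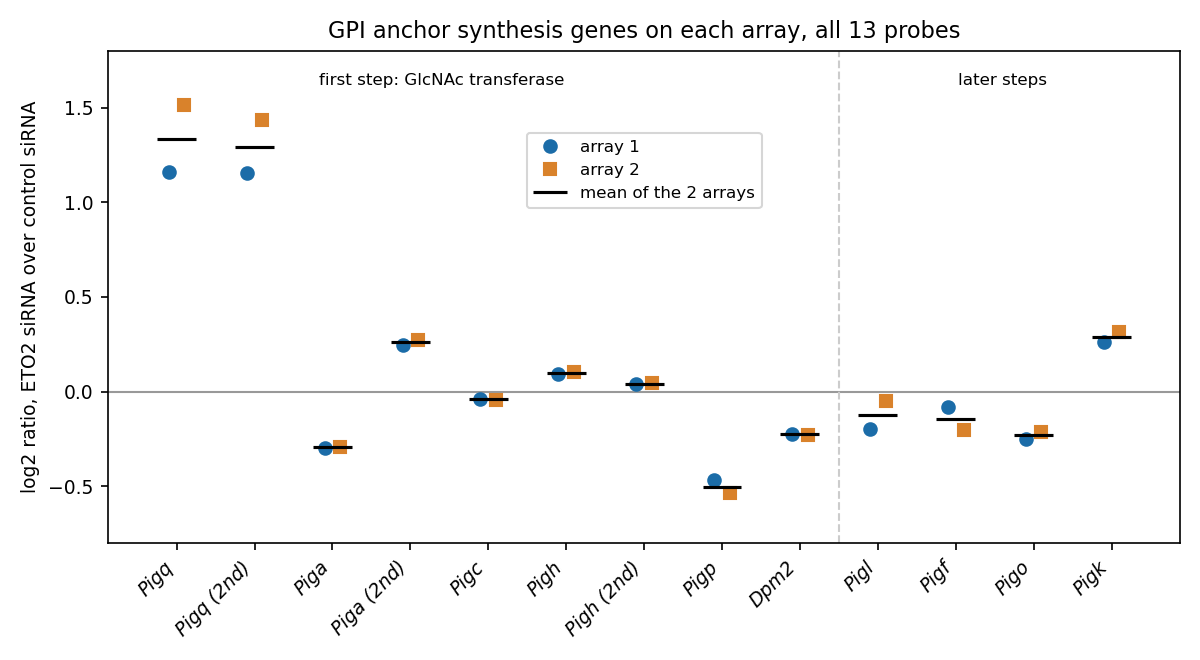
Log2 ratio of ETO2 siRNA over control siRNA (vertical axis) for all 13 probes of the 10 genes, with circles for array 1, squares for array 2 and bars for their mean. The Pigq probes lie between 1.15 and 1.51, and every other probe lies between -0.54 and 0.32.

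The promoter of Pigq is shown because Pigq has the largest ratio of the members in an experiment on a GATA-1 partner. The sequence is RefSeq's, build GRCm38.p6, minus strand of chr17:25941940-25942239, from 250 bases before to 50 bases after the annotated start. Capitals mark GATA, the core of the GATA factor motif, and CAGATG, a form of the E-box.
Pigq promoter: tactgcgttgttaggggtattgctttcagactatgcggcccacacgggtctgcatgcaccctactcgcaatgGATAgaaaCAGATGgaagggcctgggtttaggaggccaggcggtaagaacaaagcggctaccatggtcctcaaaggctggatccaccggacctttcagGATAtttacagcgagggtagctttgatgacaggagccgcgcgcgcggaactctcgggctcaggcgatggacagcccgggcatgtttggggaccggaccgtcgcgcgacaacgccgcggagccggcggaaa
Counted from the start, GATA begins at -178 and -80 and CAGATG at -170, with no overlap between them. Searched on both strands, GATA lies in 57.9% of the 32851 RefSeq windows of this length, so its presence is common. CAGATG lies in 17.2% of them and CAGCTG in 16.3%. AGATAA and TGATAA, which both contain GATA, lie in 11.2% and 9.1%. A RefSeq window was given for 9 of the 10 members, with several for some. GATA was found for 7 of these genes, CAGATG for Pigq, CAGCTG for Pigp, TGATAA for Piga, and AGATAA for 0. The 9 genes had 13 windows, so counts of genes are not set beside shares of single windows. Both GATA of Pigq follow a G, so neither is part of AGATAA or TGATAA. A match of letters is not a binding site, and these arrays do not measure binding.

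None of the other subunits of the N-acetylglucosamine transferase had a ratio near that of Pigq. Pigp, a small subunit, had log2 signals of 13.21 and 13.15 in ETO2 siRNA cells, against 13.68 and 13.69 in control siRNA cells. Its ratios were -0.47 and -0.54, a mean of -0.50 ± 0.05 (SD, n = 2 arrays), and its level was 70.6% of that with control siRNA. Pigp was lower on both arrays, and 889 of the 16581 genes had a larger ratio in either direction. The log2 ratio of Pigq exceeded that of Pigp by 1.63 on array 1 and 2.05 on array 2.

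Piga, the catalytic subunit, gave opposite answers from its 2 probes. The brighter one had log2 signals of 12.69 and 12.70 in ETO2 siRNA cells and 12.99 and 12.99 in control siRNA cells. It gave ratios of -0.30 and -0.29, with a mean of -0.29 ± 0.0030 (SD, n = 2 arrays). The dimmer one had log2 signals of 9.93 and 10.09 in ETO2 siRNA cells and 9.68 and 9.82 in control siRNA cells. It gave 0.25 and 0.27, with a mean of 0.26 ± 0.017 (SD, n = 2 arrays). Each probe was repeated closely between the arrays, so the disagreement is larger than the array spread. With the scanner's processed signals in place of normexp and loess, the brighter probe was at -0.01 and the dimmer at 0.22. No direction is given for Piga.

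Dpm2, which also belongs to the enzyme that makes dolichol-phosphate mannose, had log2 signals of 12.57 and 12.70 in ETO2 siRNA cells, against 12.79 and 12.93 in control siRNA cells. Its ratios of -0.22 and -0.23 gave a mean of -0.23 ± 0.0070 (SD, n = 2 arrays), or 85.5% of the control siRNA level. Dpm2 was lower on both arrays. With the processed signals its ratio was -0.07. Pigc stood at -0.04 on both arrays. Pigh had ratios of 0.09 and 0.10 by its brighter probe and 0.04 and 0.05 by the other. With the processed signals the mean ratio was 0.28 by the brighter Pigh probe and 0.32 by the other. Neither Pigc nor Pigh passed the threshold.

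**Figure D2:**
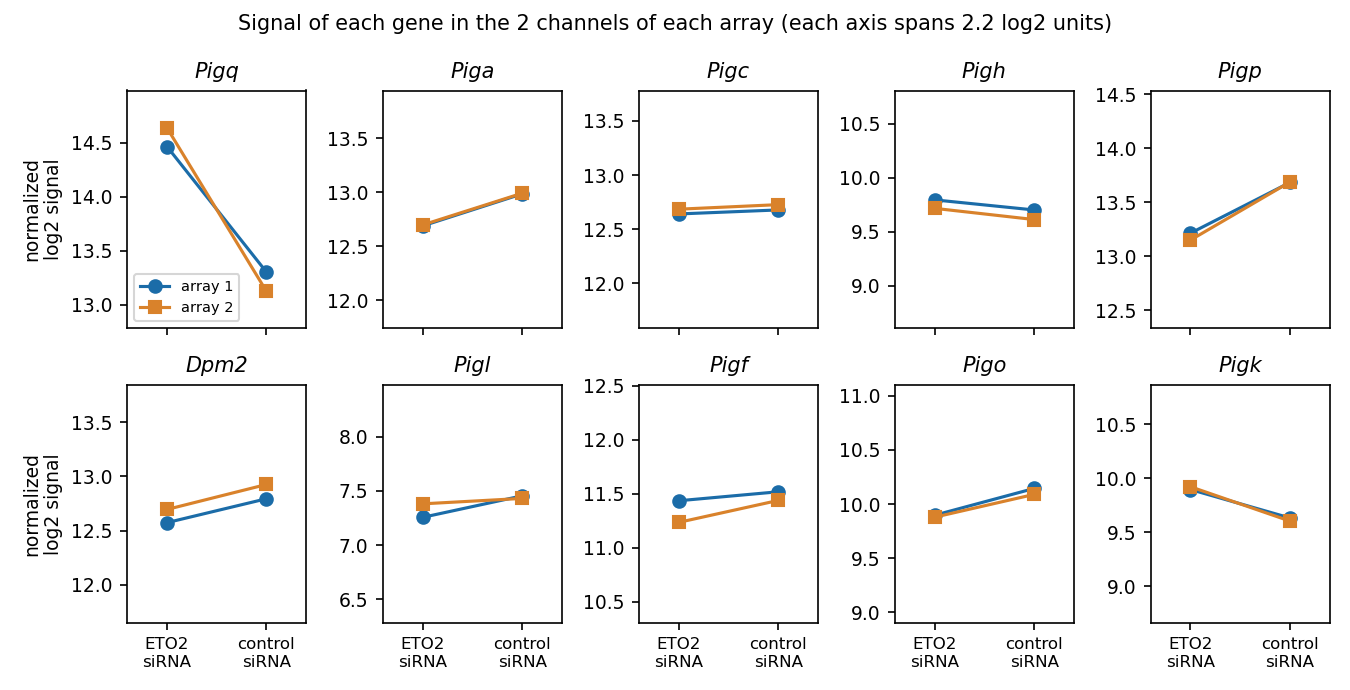
Normalized log2 signal (vertical axes) of the probe that represents each gene, with ETO2 siRNA at the left and control siRNA at the right of each panel and a line for each array. Pigq runs down to the right on both arrays, Pigk and Pigh less steeply, while Pigp, Piga, Dpm2 and Pigo run up.

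Among the members of later steps, Pigk alone had a mean ratio above 0. Pigk, the catalytic subunit of the transamidase, had log2 signals of 9.90 and 9.92 in ETO2 siRNA cells and 9.63 and 9.60 in control siRNA cells. Its ratios of 0.26 and 0.32 gave a mean of 0.29 ± 0.04 (SD, n = 2 arrays), or 122% of the control siRNA level. Pigk was higher on both arrays. After median centring its ratio was -0.11, which is 0.20 above the median of all genes under that setting.

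Pigo, which adds ethanolamine phosphate to the third mannose in the mammalian pathway, had log2 signals of 9.90 and 9.88 in ETO2 siRNA cells and 10.14 and 10.09 in control siRNA cells. Its ratios of -0.25 and -0.21 gave a mean of -0.23 ± 0.03 (SD, n = 2 arrays), or 85.3% of the control siRNA level. Pigo was lower on both arrays. Its partner Pigf had ratios of -0.08 and -0.20, and the deacetylase Pigl had -0.20 and -0.05. The ratios of Pigf and Pigl varied between the arrays by about as much as their distance from 0, and neither passed the threshold.

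In all, 2 of the 10 members (Pigq and Pigk) passed as higher and 3 (Pigp, Dpm2 and Pigo) as lower, 55.6% of the 9 genes other than Piga. With Piga counted as lower by its brighter probe, 60% of the 10 genes passed, beside 40.7% of all genes. The members were chosen on this contrast, so nothing is read from that share. Their median log2 ratio was -0.13, or -0.14 without Pigq, beside -0.02 for all genes. Pigq was called higher and Pigp lower in each of 10 ways of processing the data. Pigq was chosen on this contrast, so its repeated calls are not support. The ways are not independent, and several give the same ratio. Dpm2 and Pigo were called lower in 6 of the 10 ways, which include median centring, where 65.2% of all genes were called lower. Neither passed with offset 0 or with the processed signals. Pigk was called higher in 6, but not with the processed signals or after median centring. The brighter Piga probe was called lower in 6 of the 10 ways, and in the fit over all probes the dimmer one was called higher. Pigc, Pigf, Pigh and Pigl were called in 1, as lower, after median centring.

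**Figure D3:**
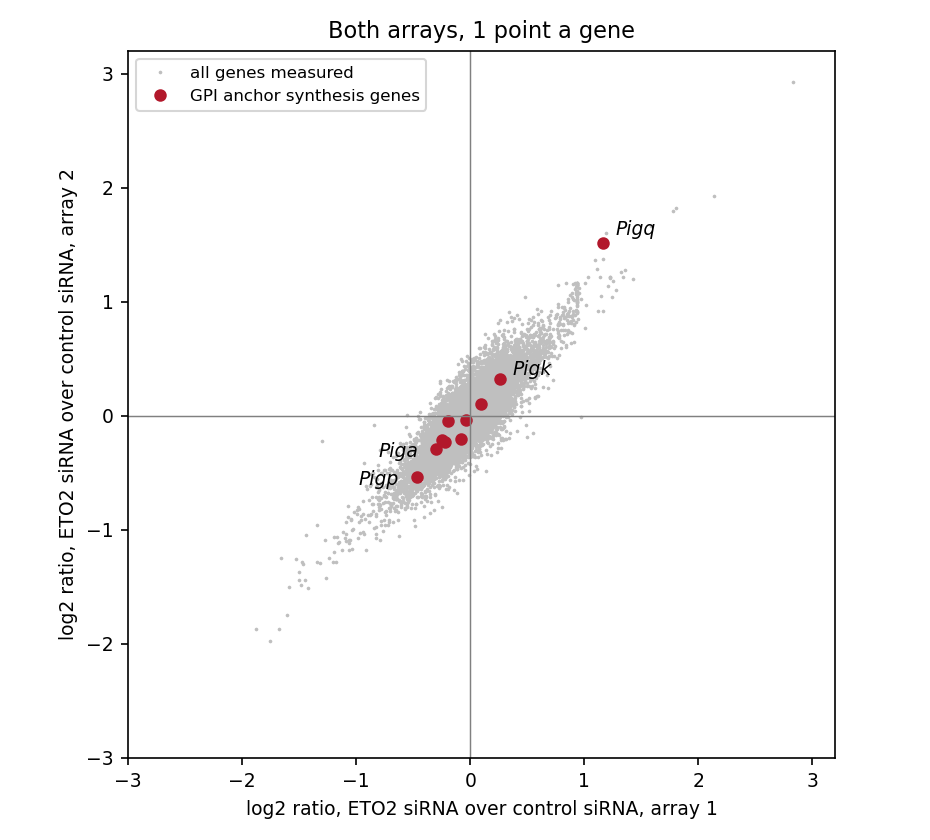
Log2 ratio of ETO2 siRNA over control siRNA on array 1 (horizontal axis) and array 2 (vertical axis) for 16581 genes in grey and the 10 GPI anchor synthesis genes in red. Pigq lies at 1.16 and 1.51, outside the main cloud, and the other members lie within it, with Pigp lowest at -0.47 and -0.54.

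**Figure D4:**
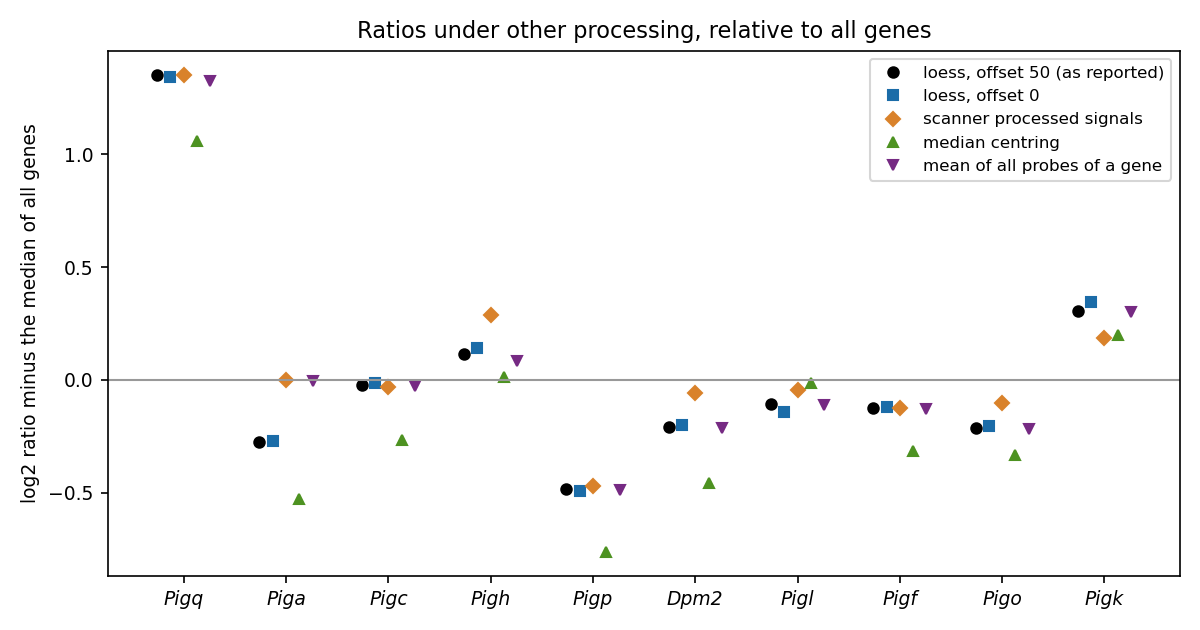
Mean log2 ratio minus the median of all genes (vertical axis) for each member under 5 ways of processing the arrays, shown by marker. Pigq stays between 1.06 and 1.35 and Pigp between -0.76 and -0.47, while Piga runs from -0.53 to 0.00.

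The remaining genes of the pathway were read from a list of 25, of which 24 were measured. Of these, 2 were higher, 5 lower and 17 did not pass the threshold, 29.2% past it, with a median log2 ratio of -0.03. That share is below the 40.7% of all genes.  Gpaa1 was higher with log2 ratios of 0.24 on each array (limma, adjusted p = 0.0063), and Pigt was higher with 0.20 and 0.19 (limma, adjusted p = 0.0204). Both are partners of Pigk in the transamidase. The other transamidase subunits, Pigs at -0.01 and Pigu at -0.09, did not pass.

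The lower genes act at several points. Pgap6 (Tmem8 in the array file), a phospholipase that cuts GPI anchors, had ratios of -0.39 and -0.52 (limma, adjusted p = 6.0e-05). Mppe1, which removes an ethanolamine phosphate before the anchored protein leaves the endoplasmic reticulum, had -0.47 and -0.39 (limma, adjusted p = 9.0e-05). These 2 genes passed in all of 9 ways of processing the data at the level of genes, always as lower. Several of these ways give the same ratio, so such counts are not of independent checks. Arv1, a membrane protein that aids GPI synthesis, had -0.30 and -0.31 (limma, adjusted p = 0.0013). Mpdu1, needed to use dolichol-phosphate mannose, had -0.16 and -0.25, and Pgap4, which adds a side-chain sugar in the Golgi, had -0.20 and -0.16 (limma, adjusted p = 0.0172 for Mpdu1 and 0.0305 for Pgap4).

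Gpaa1, Pigt, Mpdu1 and Pgap4 passed in 5 of those 9 ways and Arv1 in 6. For Mpdu1, Pgap4 and Arv1 these include median centring, where 65.2% of all genes were called lower. Mpdu1 changed sign, to 0.05, with the processed signals, and Gpaa1 stood at -0.03 after median centring, 0.28 above the median of all genes there. Among genes that did not pass, the largest ratios were those of Pigm (-0.16), which adds the first mannose, its partner Pigx (-0.12), the remodelling factor Pgap2 (-0.11) and Pyurf (0.11). The other probe of Pigx gave -0.18 and that of Pigg 0.17, each past the threshold in the fit over all probes. Pyurf is named Pigy in the array file and is the current symbol of the transcript that also encodes that transferase subunit. The catalytic subunit Dpm1 of dolichol-phosphate mannose synthase was at -0.11 and its partner Dpm3 at -0.00, beside -0.23 for Dpm2.

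Proteins that carry the anchor were read from a list of 78 genes, of which 38 were measured. Of these, 8 were higher, 5 lower and 25 did not pass, 34.2% past the threshold beside 40.7% of all genes, with a median log2 ratio of -0.01. The list was dimmer than all genes, so the 2 shares are not matched for brightness. Its median log2 signal in control siRNA cells was 7.08, against 9.31 for all genes. The list includes transmembrane proteins, Ulbp1 and Ceacam20 among them. Counts of anchored proteins here and below are therefore counts of the list. Cd59a and Cd59b encode inhibitors of the complement attack complex. Cd59a had ratios of 0.33 and 0.35 and Cd59b 0.46 and 0.46 (limma, adjusted p = 0.000477 and 4.1e-05). The other probes of these genes gave 0.20 for Cd59a and 0.23 for Cd59b. The Cd59 genes are near copies, so cross-hybridisation between their probes cannot be told apart from their own signal. Both passed as higher in all of 9 ways of processing. Over these ways Cd59a ran from 0.27 to 0.89 and Cd59b from 0.24 to 0.78, so the size depends on the processing. Their probes were dim, with mean log2 signals of 6.53 for Cd59a and 7.33 for Cd59b in control siRNA cells.

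Cd55, which speeds decay of complement convertases, had 0.30 and 0.23 (limma, adjusted p = 0.0036) and 0.25 by its other probe, and passed in 5 of the 9 ways of processing. Its ratio was 0.12 with the processed signals, where it did not pass, and -0.11 after median centring, 0.20 above the median of all genes there. Lypd1, a protein of the Ly6 family, had the largest ratio of the list, 0.62 and 0.65 (limma, adjusted p = 2.0e-06). Art4, which carries the Dombrock blood group in humans, had 0.19 and 0.28 (limma, adjusted p = 0.0079). The NKG2D ligand Ulbp1, one of the transmembrane proteins of the list, had 0.14 and 0.32 (limma, adjusted p = 0.013). Art4 stood at -0.31 after median centring, level with the median of all genes there. Over the 9 ways Lypd1 ran from 0.37 to 0.95 and Ulbp1 from 0.23 to 0.62, so these sizes also depend on the processing. The probes of both were dim, with mean log2 signals of 7.66 for Lypd1 and 6.34 for Ulbp1 in control siRNA cells.

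On the lower side, Xpnpep2, an aminopeptidase, had -0.34 and -0.08, and Cd52 had -0.22 and -0.20 (limma, adjusted p = 0.0262 and 0.0149). Cd24a, a surface marker of erythroid precursors among other cells, had -0.24 and -0.16, and Ly6h had -0.12 and -0.22 (limma, adjusted p = 0.02 and 0.0465). None of these 4 calls held in all 9 ways of processing: Xpnpep2 passed in 5 and each of the other 3 in 6. For all 4 genes the passes include median centring, where 65.2% of all genes were called lower. With the processed signals Cd24a was at -0.09 and did not pass. After median centring Ly6h was 0.03 above the median of all genes, so its direction relative to other genes turned. The fifth gene counted as lower, Cntn1, was not well above background with ETO2 siRNA on either array and was kept only through control siRNA, so it is not read as lower. Without the 3 genes of the list that were near background in this way, 8 were higher and 4 lower of 35.

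**Figure D5:**
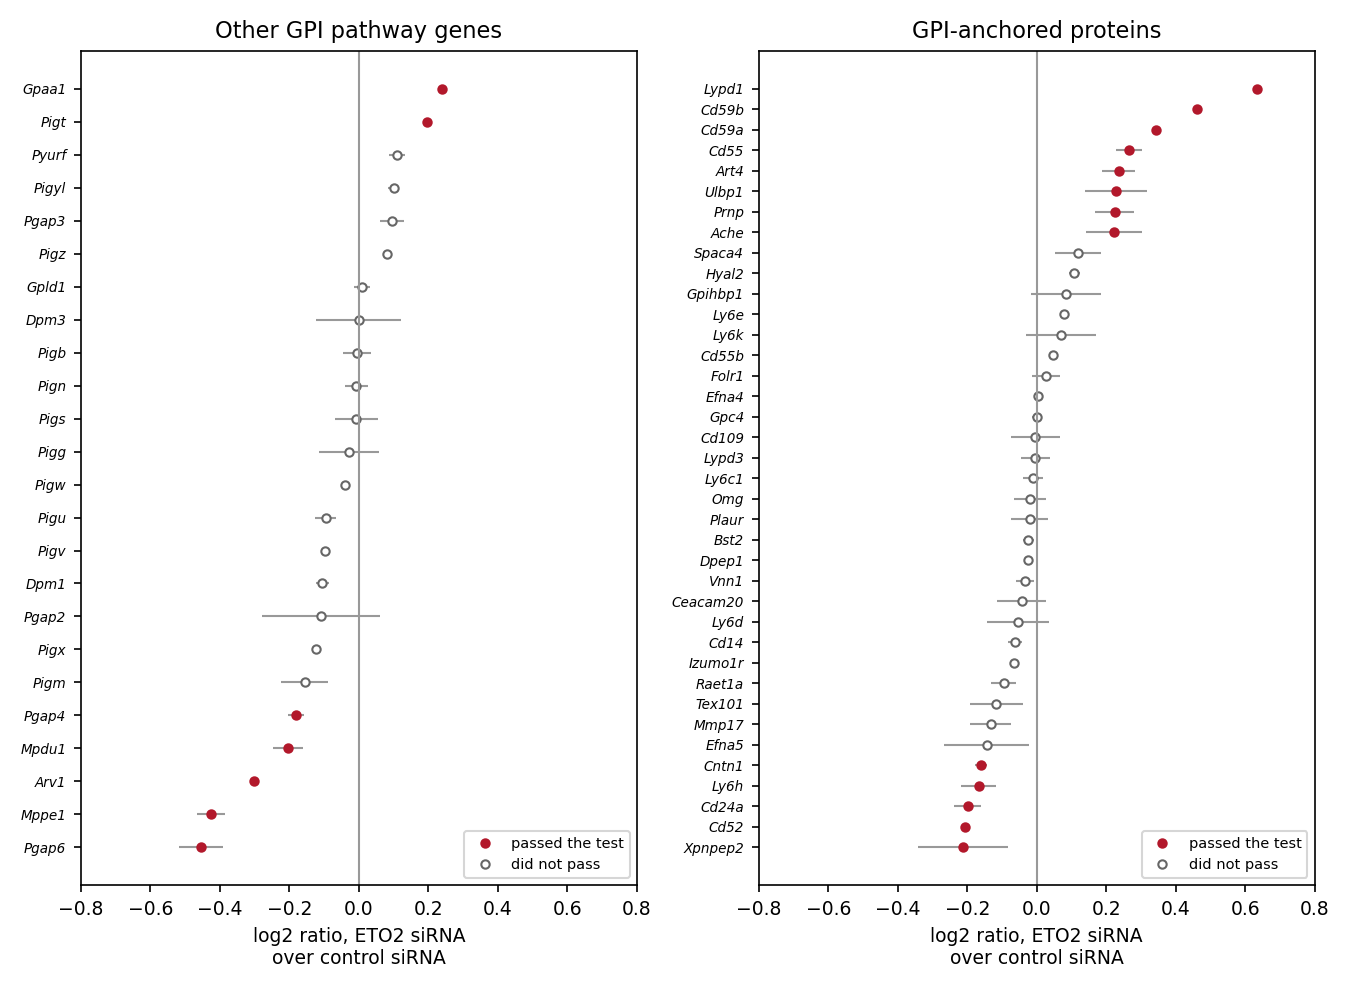
Mean log2 ratio of ETO2 siRNA over control siRNA (horizontal axis). The left panel holds 24 other GPI pathway genes and the right panel 38 genes of the list of GPI-anchored proteins. Lines run from the array 1 to the array 2 value, and filled points are genes that passed the threshold. The ratios run from -0.45 for Pgap6 to 0.24 for Gpaa1 at the left and from -0.21 for Xpnpep2 to 0.63 for Lypd1 at the right, all below the 1.34 of Pigq.

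Genes beside Pigq on chromosome 17 were read from the order of the RefSeq table. Rab40c, a GTPase of the Rab family, was lower by the brighter of its 2 probes, with ratios of -0.22 and -0.29 (limma, adjusted p = 0.0045). Its other probe is not given here. Wfikkn1, a protease inhibitor, had 0.03 and -0.01 and the long non-coding RNA D630044L22Rik 0.07 and 0.03, and neither passed the threshold. Cox7c-ps1, Nhlrc4 and A930017K11Rik had no probe under a matched name and were not analysed here. In that table Nhlrc4 overlaps the upstream end of the promoter window shown above. None of the 3 measured neighbours passed as higher by its brightest probe.

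The genes whose pair of ratios lay closest to that of Pigq, by Euclidean distance over the 2 arrays, were Epb42 (1.19 and 1.60), Erfe (1.17 and 1.38), Hba-x (1.10 and 1.37), Cdc25b (1.11 and 1.29) and Aqp3 (1.14 and 1.22), at distances of 0.09 to 0.29. Epb42 encodes a protein of the red cell membrane skeleton, Erfe a hormone of erythroblasts that acts on iron metabolism, and Hba-x an embryonic globin. Cdc25b is a cell cycle phosphatase and Aqp3 a water and glycerol channel. With 2 arrays, this likeness says only that the ratios are of like size.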

How the data were processed

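Spot brightness was read with Agilent Feature Extraction 9.1.3.1, per the file headers, and each deposited intensity (spot mean and local background) is on a linear scale with no normalization. The processed signals had background subtraction and dye normalization from that software, per the file headers, and the deposited log10 ratio (red over green) comes from them. The authors' deposited value table holds the same log10 ratios on 45018 features, within a relative tolerance of 0.005.

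Mean signals were corrected by normexp (offset 50) and normalized by loess in limma 3.58.1 (R 4.3.3). Control features (1639) were left out of tests. Spots of a probe were averaged. A probe was kept if either channel was flagged well above background on both arrays, as 24426 of 41174 probes (59.3%) were. The brightest kept probe stood for a gene. Probe names were updated from RefSeq's table (GRCm38.p6): the accession matched for 24375, the symbol for 6301 and a synonym for 2426, while 8072 stayed under the file's name. For the array's genome build, the sources used here name none. Ratios were tested against 0 with lmFit and eBayes (two-sided), and p-values were adjusted by Benjamini-Hochberg over 16581 genes at 0.05. The scripts were tested on simulated data. The 2 arrays leave 1 residual degree of freedom (prior 13.6, prior SD 0.0905), and a sign permutation could not go below p = 0.5.

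The members and the gene lists were chosen with earlier results of these data known. Named were all members, the other pathway genes past the threshold and the 4 largest of the rest, up to 6 GPI-anchored proteins and up to 3 dolichol or N-glycan genes in each direction, 3 neighbours on each side, the 5 genes nearest to Pigq, and Cbfa2t3. Signal over background and the number of arrays limit the precision. Alternatives changed the offset, the source of the ratio, the normalization, the filter, the choice of probe and saturated probes, and left out each array.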

Additional observations from a re-analysis of the deposited data

How the results depend on the processing

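The Pigq ratio was 1.34 and lay between 1.31 and 1.34 under the other settings, apart from 0.75 after median centring (1.06 above the median of all genes), and between 1.16 and 1.51 with either array left out. Its rank was 7 with the reported settings, 26 with offset 0, 32 with the processed signals, and 23 after median centring. Pigk turned to -0.11 after median centring. With the processed signals, the deposited log10 ratio or the deposited value table, 1 member was higher and 1 lower, 0 and 2 other pathway genes, and 5 and 1 GPI-anchored proteins; all genes gave 1189 higher and 1264 lower (1139 and 1216 from the value table). After median centring these counts were 1 and 8 members, 0 and 18 pathway genes, 4 and 16 anchored proteins, and 464 and 10807 of all genes. With offset 0, 2 members were lower. Tested over all probes, 4 members' probes were higher, 8 pathway probes lower, and 4578 of all probes higher. Leaving out genes whose probes differed in call, or genes near background or saturated in a channel on both arrays, both chosen after seeing the data, kept each of these counts within 1.5 times. The compared samples lie on the same array and each array gives 1 ratio, so the test of these ratios against 0 is already paired by array. Leaving out an array leaves no residual degrees of freedom, so only values are given. The cause of these differences was not tested.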

Other observations

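Mannose for the anchor comes from dolichol-phosphate mannose, which also serves N-glycan synthesis, and both neighbouring pathways were read from lists. Of 13 genes of dolichol and mannose supply, 2 were higher, 2 lower and 9 did not pass, with a median log2 ratio of 0.00. The share past the threshold was 30.8%, below the 40.7% of all genes. Of the 9 that did not pass, however, Dhdds (0.58), Pmm1 (0.32) and Pmm2 (0.21) passed as higher by their other probe, so no direction is given for them. Nus1, a subunit of the enzyme that makes the dolichol chain, had ratios of 0.28 and 0.37 (limma, adjusted p = 0.00086), and Gmppb, which makes GDP-mannose, had 0.27 and 0.18 (limma, adjusted p = 0.0107). Mpdu1, given above, and Dolpp1, which recycles dolichol pyrophosphate, with -0.21 and -0.12 (limma, adjusted p = 0.0481), were the lower genes. Of 21 measured genes of N-glycan assembly and transfer, 2 were higher, 5 lower and 14 below the threshold by the brightest probe, and the median was -0.10. The share past the threshold was 33.3%, also below the 40.7% of all genes. The probes of 7 of these genes differed in their call, Rpn2 (-0.22 and 0.23) and Stt3a among them, and of the 14 other genes 1 was higher and 3 lower. Alg2, a mannosyltransferase, had the lowest ratios, -0.79 and -0.60 (limma, adjusted p = 1.8e-06). Ostc, a subunit of the oligosaccharyltransferase, had -0.26 and -0.37, and Alg14, part of an early N-acetylglucosamine transferase, had -0.27 and -0.22 (limma, adjusted p = 0.0012 and 0.0063), though the other probe of Alg14 was at -0.08 and did not pass. Alg8, a glucosyltransferase, had 0.11 and 0.27 (limma, adjusted p = 0.0308). Stt3a, the catalytic subunit of an oligosaccharyltransferase, was higher by its brightest probe, 0.42 and 0.66 (limma, adjusted p = 2.7e-05), but its other probes gave -0.03 and -0.21, so no direction is given.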
